A study of Mus musculus with 47 samples.

Results

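Histone H3 monomethylated at lysine 4 (H3K4me1) was mapped by chromatin immunoprecipitation with sequencing in control NMuMG cells, an epithelial line from the mouse mammary gland, untreated (0 h) and after 48 h with transforming growth factor β1 (TGFβ1) at 5 ng/ml. The regions described here are the 20179 peaks of the 0 h list and the 12863 peaks of the 48 h list, 33042 of the 806216 peaks in the 32 lists of the series, chosen by antibody, genotype and time and not by any measured value. A peak was kept if it overlapped a peak of the other time by at least 1 bp, lost if present at 0 h only and gained if present at 48 h only. Cells of both times carry the genotype Control and library names beginning with sgCt, and they were fixed with formaldehyde only. The series also profiled H3K4me3, H3K27ac, H3K14ac and H3K18ac at both times in the same cells, the SWI/SNF proteins PHF10 and BRG1 and the bZIP factors ATF3, FOSL2 and FOSB, and it includes Pbrm1 knockout cells, which have no H3K4me1 list here. Each time has 1 H3K4me1 library, so no difference between the times has a replicate check. Intervals below are exact Clopper-Pearson intervals at 95% and cover counting error only.

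H3K4me1 is laid down mainly by the MLL3 and MLL4 methyltransferases at enhancers and on the flanks of active promoters. H3K4me3 marks the promoters themselves, most strongly at CpG islands, and H3K27ac marks active promoters and enhancers. An enhancer typically carries H3K4me1 with little H3K4me3 and gains H3K27ac when it is used. TGFβ1 signals through serine/threonine kinase receptors to SMAD transcription factors, and in NMuMG cells it drives an epithelial to mesenchymal transition (EMT), in which junction genes are turned down and matrix and contractile genes are turned up.

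The starts that had H3K4me1 at 48 h only were richer in CpG dinucleotides than those that had it at 0 h only, and 4 of them are shown for that contrast. Each is a RefSeq window (GRCm38.p6, the patch release behind mm10) from 250 bases before to 50 after an annotated start, 5′ to 3′ on the gene's strand, with CpG dinucleotides in capitals. Acvr2a, a type II activin receptor (chr2:48813859-48814158, plus strand, 54 CpG), and Tjp1, the tight junction scaffold ZO-1 (chr7:65371195-65371494, minus strand, 31 CpG), overlapped a gained peak. Tjp3, the related scaffold ZO-3 (chr10:81291218-81291517, minus strand, 9 CpG), and Grhl3, an epithelial transcription factor (chr4:135573583-135573882, minus strand, 12 CpG), overlapped a lost peak. They were chosen after their values were seen.
Acvr2a: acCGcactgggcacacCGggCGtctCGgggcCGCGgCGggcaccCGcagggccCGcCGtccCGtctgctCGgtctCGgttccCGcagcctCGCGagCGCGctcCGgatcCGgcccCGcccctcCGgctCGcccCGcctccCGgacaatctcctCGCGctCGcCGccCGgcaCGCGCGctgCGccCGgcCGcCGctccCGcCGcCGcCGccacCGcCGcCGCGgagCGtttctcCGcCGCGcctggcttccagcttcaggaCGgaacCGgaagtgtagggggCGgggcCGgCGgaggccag
Tjp1: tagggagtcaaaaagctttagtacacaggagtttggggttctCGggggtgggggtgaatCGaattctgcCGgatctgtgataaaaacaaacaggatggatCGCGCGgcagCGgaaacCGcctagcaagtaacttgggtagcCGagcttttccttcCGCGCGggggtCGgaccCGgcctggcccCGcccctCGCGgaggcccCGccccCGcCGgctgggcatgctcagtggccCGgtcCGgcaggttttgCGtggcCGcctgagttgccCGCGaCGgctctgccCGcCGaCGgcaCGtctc
Tjp3: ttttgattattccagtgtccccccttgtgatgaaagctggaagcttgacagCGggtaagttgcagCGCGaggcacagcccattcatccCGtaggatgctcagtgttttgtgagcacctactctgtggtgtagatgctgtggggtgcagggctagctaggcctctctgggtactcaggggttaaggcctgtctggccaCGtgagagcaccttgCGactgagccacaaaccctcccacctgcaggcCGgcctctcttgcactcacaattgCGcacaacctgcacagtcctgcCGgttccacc
Grhl3: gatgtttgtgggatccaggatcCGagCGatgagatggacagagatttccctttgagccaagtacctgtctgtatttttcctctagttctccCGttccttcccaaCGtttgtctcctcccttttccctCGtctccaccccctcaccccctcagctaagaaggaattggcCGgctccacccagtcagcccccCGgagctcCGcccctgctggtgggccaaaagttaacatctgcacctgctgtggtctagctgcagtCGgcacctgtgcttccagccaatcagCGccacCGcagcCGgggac

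Across all 21263 such windows, those that overlapped a peak at 48 h only (840 windows of 786 genes) held a median of 31 CpG (quartiles 23 and 39). Windows that overlapped a peak at 0 h only (725 windows of 678 genes) held 14 (9 and 18), and windows that overlapped one at both times (2535) held 24 (18 and 32). The quartile ranges of the windows with a peak at 1 time only did not overlap. Most of the 48 h only windows were active throughout: 728 of them (86.7%) overlapped H3K4me3 and H3K27ac at both times, against 195 (26.9%) of the 0 h only windows. Among windows with both marks at both times the contrast was smaller, with medians of 31 for 48 h only, 22 for 0 h only, 27 for both times and 25 for the 6026 without H3K4me1 at either time. The AP-1 type motif TGANTCA, which reads the same on either strand, was present in 2.02% of the 48 h only windows, 5.66% of the 0 h only windows and 6.99% of all windows. It was present in 3.83% of windows with a peak at both times and 7.8% of those with none. In the same order the median GC content was 70.3, 60.3, 56.3, 66.7 and 54.0%, so the motif was rarer where GC content was higher. Windows of equal GC content were not compared.

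The lists were first compared with what the mark is known for. At 0 h 86.3% of the H3K4me1 peaks overlapped an H3K4me3 peak of the same time, and at 48 h 91.3% did. The summits were close, with a median offset of 32 bp at 0 h and 34 bp at 48 h. Around stranded gene starts, H3K4me1 summits were most frequent in the first 200 bp downstream, the same bin as H3K4me3 summits. They were more spread than H3K4me3 summits, with 65.9% against 82.1% within 500 bp of the start at 0 h. At 48 h these shares were 74.4% and 82.8%. Of distal H3K27ac peaks without H3K4me3, the places where enhancers would be sought, 17.8% carried H3K4me1 at 0 h (501 of 2814) and 4.53% at 48 h (161 of 3556). Of the 3444 FOSL2 peaks at 48 h, 2.06% had a 48 h H3K4me1 peak within 1 kb, whereas 18.5% had H3K27ac and 42.1% had H3K18ac of that time within the same distance. Neither the weakest nor the strongest H3K4me3 peaks carried H3K4me1 most often: by quintiles of −log10 q from weak to strong, 36.8, 56.3, 82.2, 61.4 and 27.3% of H3K4me3 peaks carried H3K4me1 at 0 h. The overlap with H3K4me3, the summit offsets and the low shares at distal H3K27ac and FOSL2 peaks are not the placement known for the mark. The wider summit spread and the low share at the strongest H3K4me3 peaks of 0 h were not counted towards this. The peaks are therefore called here by their label and list only. The cause was not tested.

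**Figure D1:**
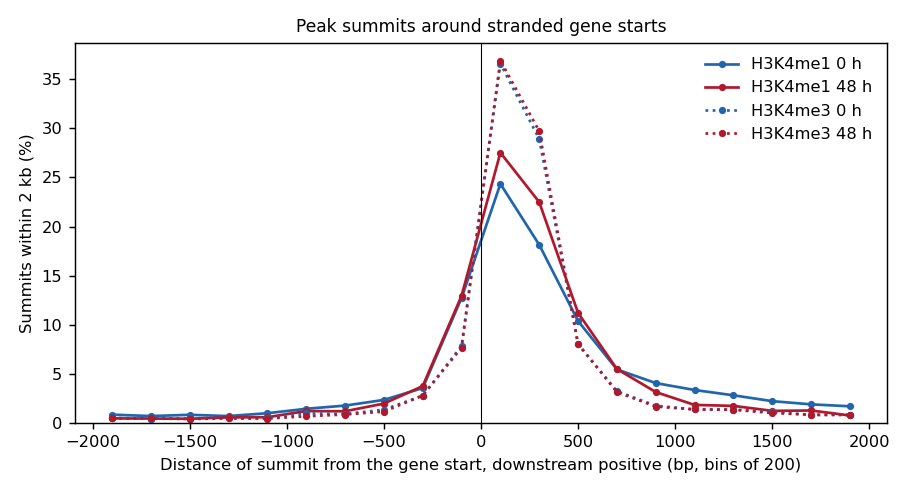
Share of peak summits (%) by distance from the gene start in bins of 200 bp (x axis, downstream positive), for H3K4me1 (solid) and H3K4me3 (dotted) at 0 h (blue) and 48 h (red), over summits within 2 kb of a stranded start. All 4 lines peak in the bin from 0 to 200 bp, which holds 24.4% and 27.5% of the H3K4me1 summits and 36.6% and 36.9% of the H3K4me3 summits at 0 and 48 h.

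The deposited list of 48 h held fewer H3K4me1 peaks than that of 0 h, and most of its peaks overlapped one of 0 h. Of the 20179 peaks at 0 h, 9928 (49.2%, interval 48.5 to 49.9) were kept and 10251 were lost. Of the 12863 peaks at 48 h, 9773 (76.0%) were already present and 3090 (24.0%, interval 23.3 to 24.8) were gained. The covered length was 8.68 Mb at 0 h and 6.39 Mb at 48 h, and the median peak length was 339 bp at 0 h and 404 bp at 48 h. The log2 ratio of peak numbers was -0.65.

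The authors' fold enrichment over input had a very different range in the lists, with a median of 3.44 and a maximum of 8.18 at 0 h and a median of 8.46 and a maximum of 58.7 at 48 h. Only 643 peaks at 0 h but 10019 at 48 h reached 5-fold, so a fold threshold turns the direction of the peak number. The gained share of 24.0% was 40.7% with lists of equal length and 97.0% with a fold of at least 5. The read depth of the libraries is unknown, and a treatment difference cannot be told apart from a difference between the 2 immunoprecipitations. Strong peaks were kept more often than weak ones at both times. From the weakest to the strongest quintile of the 0 h list by −log10 q, 28.8, 34.2, 45.2, 59.8 and 78.0% were kept. In the 48 h list, 36.1, 62.9, 85.6, 95.8 and 99.6% were already present at 0 h. Across the 9928 kept peaks the −log10 q of both times had a Spearman rho of 0.52 and the fold a rho of 0.19, given as a description since peaks share their libraries.

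**Figure D2:**
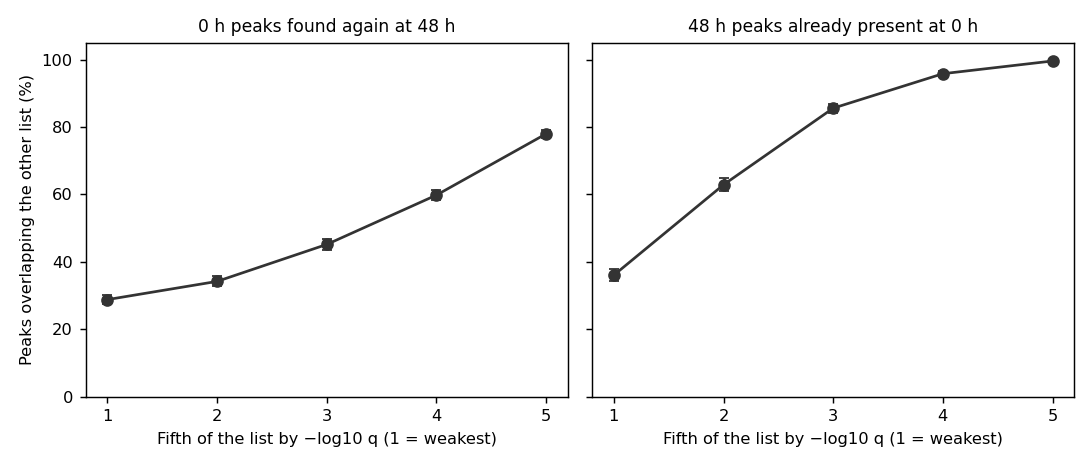
Share of H3K4me1 peaks (%) that overlap the list of the other time, by quintile of the own list ranked by −log10 q (1 is weakest), with exact 95% intervals of counting error. The share rises from 28.8% to 78.0% for 0 h peaks and from 36.1% to 99.6% for 48 h peaks.

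What was kept and what was lost differed in place and in acetylation. Of 0 h peaks within 2 kb of a gene start, 68.4% were kept, and of the distal ones 37.5% were kept. Of 0 h peaks with H3K27ac at 0 h 73.2% were kept, against 25.7% of those without it. Of the 2145 peaks at 0 h that overlapped no H3K4me3 at either time, 43 (2.0%) were kept. So 23.6% of lost peaks were at promoters (interval 22.8 to 24.5), against 52.8% of kept peaks in the 0 h list and 51.8% of gained peaks (interval 50.0 to 53.5). Among peaks without H3K4me3 at either time the order was turned, with 15.3% of lost and 3.11% of gained peaks at promoters. H3K4me3 of the same time overlapped 99.4% of kept peaks at 0 h, 73.7% of lost peaks at 0 h and 74.7% of gained peaks at 48 h.

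**Figure D3:**
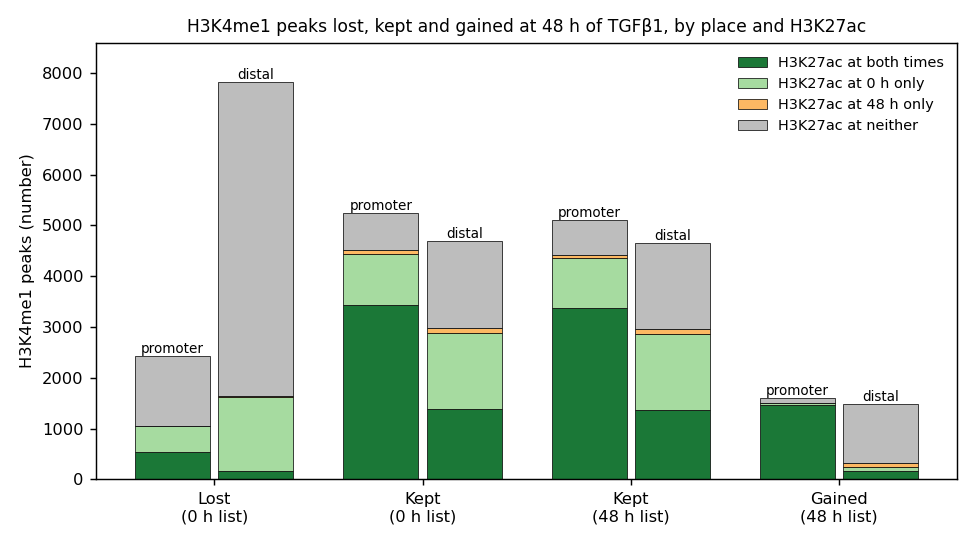
Number of H3K4me1 peaks lost, kept (counted in each list) and gained, split into promoter (within 2 kb of a gene start) and distal bars and coloured by H3K27ac at both times, 0 h only, 48 h only or neither. The tallest bar is the 7828 distal lost peaks, 6190 of them without H3K27ac at either time, and the promoter bar of the gained peaks is almost wholly of the class with H3K27ac at both times (1471 of 1599).

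The gained peaks fell into unlike sets. The 1599 gained promoter peaks lay at starts that were active before treatment: 93.5% overlapped H3K27ac at 0 h, 92.3% at 48 h (interval 90.9 to 93.6) and 97.7% overlapped H3K4me3 at both times. They stood out from kept promoter peaks of the 48 h list in their overlap with H3K18ac at 48 h (86.5% against 33.6%), with BRG1, the ATPase of SWI/SNF complexes, at 0 h (73.7% against 29.0%) and with PHF10, a subunit of the PBAF form of SWI/SNF, at 0 h (91.9% and 93.7% in its 2 replicates, against 73.8% and 79.7%). Lost promoter peaks were at the other end, with H3K27ac at 48 h in 22.6%, H3K18ac at 48 h in 12.5%, BRG1 in 19.7% and PHF10 at 0 h in 11.4% and 28.4%.

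The gained peaks were also among the weaker of the 48 h list, with a median fold at the 20.7th percentile of that list. They were therefore compared with kept peaks of the same quintile by −log10 q, with promoter and distal peaks pooled. In the weakest quintile of the 48 h list, H3K18ac at 48 h overlapped 56.3% of gained and 27.4% of kept peaks, BRG1 45.4% and 27.4%, and H3K27ac at 48 h 58.3% and 34.8%. In the second quintile H3K18ac overlapped 55.1% and 26.4%, and BRG1 46.4% and 26.2%. Promoter peaks were more frequent among gained than among kept peaks in both the weakest (53.0% against 40.6%) and the second quintile (59.3% against 46.4%). In the third quintile the H3K18ac shares were 25.1% of gained and 20.8% of kept peaks, those of H3K27ac at 48 h were 37.5% and 36.7%, and promoter peaks were fewer among gained (35.9%) than among kept peaks (47.9%). In the fourth quintile, with 108 gained peaks, the order was turned, with H3K27ac at 48 h at 30.6% of gained and 49.3% of kept peaks, H3K18ac at 12.0% and 16.5% and BRG1 at 11.1% and 13.9%.

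**Figure D4:**
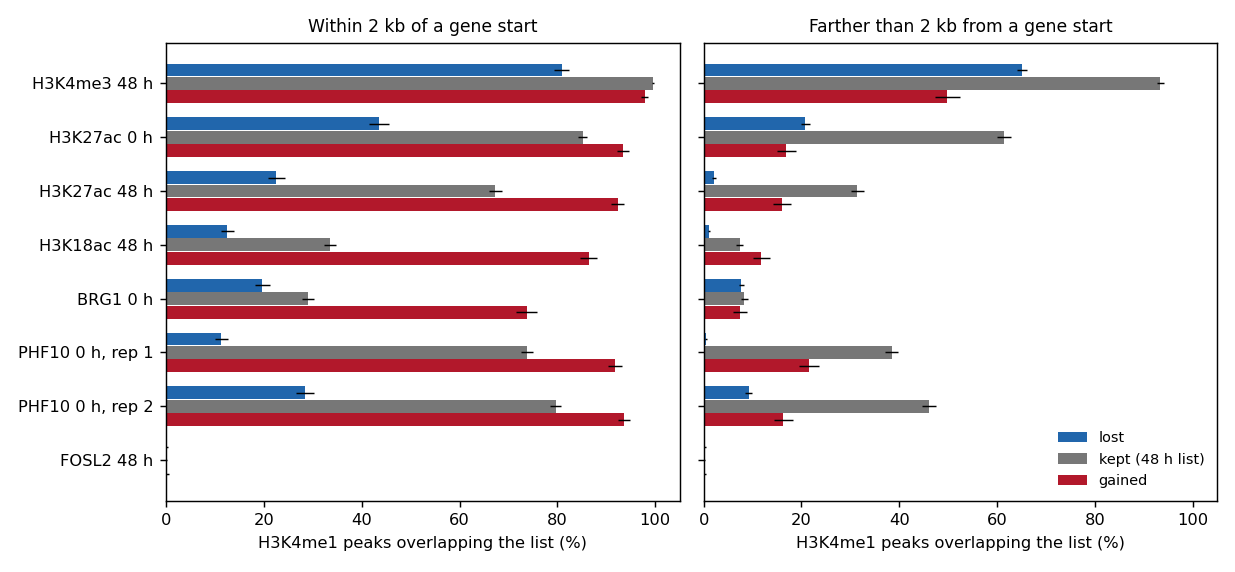
Share of lost, kept (48 h list) and gained H3K4me1 peaks (%) that overlap peaks of other lists, with exact 95% intervals of counting error, for promoter peaks (left) and distal peaks (right). At promoters the gained peaks have the highest shares for H3K27ac, H3K18ac, BRG1 and PHF10, and at distal sites the kept peaks do for H3K4me3, H3K27ac and PHF10.

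Most of the 1491 gained distal peaks had no H3K27ac. It was absent at both times from 1161 of them (77.9%). Of these 1161, 555 (47.8%) overlapped H3K14ac at 48 h, a list of 35270 peaks. That share was 86.2% for gained distal peaks with H3K27ac at both times and 85.9% for those with it at 0 h only. It was 32.9% for those with H3K27ac at 48 h only. Of the 1491, 560 (37.6%) overlapped no H3K4me3 at either time, against 0.92% of kept distal peaks of the 48 h list. A small set of 79 gained distal peaks had H3K27ac at 48 h and not at 0 h, and whether they are enhancers was not tested. In 92 others the order was the reverse, with H3K27ac at 0 h only. Of the 79, 57 (72.2%, interval 60.9 to 81.7) overlapped no H3K4me3 at either time, against 11 of the 92 (12.0%). H3K18ac overlapped 35 of the 79 at 0 h and 45 at 48 h (57.0%), so a share of these sites was acetylated at lysine 18 before treatment. Of the 1161 without H3K27ac, 5.17% had H3K18ac at 0 h and 1.38% at 48 h. None of the 79 overlapped a FOSL2 peak of 48 h, and 4 (5.06%) had one within 1 kb, against 6 of the 1161 (0.52%), 3.15% of gained distal peaks with H3K27ac at both times, 3.39% of lost distal peaks with H3K27ac at 0 h only and 9.55% of those with it at both times.

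List genes with such a peak included Dsp, Lpp and Smad3, each with H3K27ac at 48 h only, no H3K4me3 and H3K18ac at 0 h. The Dsp peak (mm10 chr13:38161352-38161960, 5.65-fold) lay inside the gene, 10.4 kb downstream of the start. It carried weak H3K27ac of 2.93-fold at 48 h, where the weakest quintile of H3K27ac peaks had a median of 3.84-fold. Dsp, which encodes the desmosome protein desmoplakin, also gained a promoter peak (4.91-fold). The peak of Lpp, a focal adhesion gene (chr16:24732075-24732305, 5.59-fold), lay inside the gene 10.3 kb from the nearest annotated start and carried H3K27ac of 10.3-fold at 48 h. The Smad3 peak (chr9:63724009-63724326, 3.30-fold) lay inside the gene 33.8 kb from the start and carried H3K27ac of 2.60-fold at 48 h, whereas Smad3 also lost a distal peak (chr9:63702567-63702798, 3.26-fold) that carried H3K27ac of 7.68-fold at 0 h only. Outside the lists, the set held peaks inside Adamts12, a metalloproteinase gene of the ADAMTS family (7.45-fold, with H3K27ac of 11.4-fold), Lamc1, a laminin chain (4.66-fold), and Mylk, the myosin light chain kinase (3.63-fold), and 4.02 kb from Lefty1, a TGFβ family antagonist (4.89-fold). These 4 were chosen after their values were seen. The strongest of the 79 by fold, in Ago2 (22.9-fold) and Nav2 (20.4-fold), had H3K4me3 at both times and no H3K18ac, unlike the list genes.

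The strongest gained peaks of all were not near list genes. They were distal peaks near Gm9376 (30.3-fold) and Zbtb40 (26.5-fold) and a promoter peak in Nudt10 (25.2-fold). All 10 of the strongest gained peaks overlapped H3K4me3 at both times.

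The lost peaks were the largest class, and with promoter and distal peaks pooled they overlapped H3K27ac least often. H3K27ac at 0 h overlapped 26.2% of them (interval 25.3 to 27.1) and at 48 h 6.95%, against 73.7% and 50.4% of kept peaks of the 0 h list. Lost peaks also had the lowest promoter share, 23.6% against 51.8% of gained peaks. Among distal peaks alone, H3K27ac was absent at both times from most lost and from most gained peaks. Distal lost peaks numbered 7828, of which 1473 (18.8%) had H3K27ac at 0 h and not at 48 h, 157 at both times and 8 at 48 h only. Loss of H3K27ac was also frequent where H3K4me1 was kept: 1493 of 4664 kept distal peaks of the 48 h list (32.01%) had H3K27ac at 0 h only and 94 at 48 h only. In the strongest quintile of the 0 h list, lost peaks still had H3K27ac at 0 h less often than kept ones (54.3% against 83.2%) and were at promoters less often (26.4% against 49.1%). ATF3 peaks of 48 h overlapped 87.1% of lost peaks and PHF10 peaks of 48 h 59.7% and 93.2% in its replicates, but those lists hold 45716, 43549 and 102434 peaks, while PHF10 at 0 h, with 11285 and 14731 peaks, overlapped 3.05% and 13.7%. The strongest lost peaks, near Gm52448 (6.87-fold) and in Larp4b (6.81-fold) and Gnb1l (6.77-fold), were distal.

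Lost distal peaks whose H3K27ac was also gone at 48 h lay at genes of unlike lists, and the genes given were picked after their values were seen. They included the mesenchymal genes Pdgfra, a growth factor receptor (3.56-fold and 3.27-fold), and Tagln, an actin-binding protein gene (4.202-fold), and the housekeeping gene Ywhaz (3.22-fold and 3.11-fold). The Tagln peak lay inside another gene, Sidt2, and within 10 kb of Tagln. Itgb6, the β subunit of the epithelial integrin that activates latent TGFβ, lost both of its peaks (chr2:60696767-60697063, 4.92-fold, and chr2:60693806-60694036, 3.41-fold), each with H3K27ac at 0 h only. Cdh1, the gene of E-cadherin, lost a peak 4.04 kb from the gene (chr8:106674287-106674568, 4.42-fold) with H3K27ac at 0 h only, while its promoter peak was kept (3.12-fold at 0 h and 5.60-fold at 48 h) with H3K27ac at both times. Jup, the gene of plakoglobin, lost a 4.09-fold peak of this kind and a 2.56-fold peak that had no H3K27ac at either time. Pmepa1, a SMAD inhibitor, lost 2 peaks inside the gene (3.83-fold and 2.88-fold), both with H3K27ac at 0 h only. By fold, the peaks named in these sentences ranked from the 4.97th to the 96.3rd percentile of the 0 h list. Krt8, a simple epithelial keratin gene, lost its only peak (3.46-fold), which had no H3K27ac at either time.

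Of the 9928 kept peaks, 9746 had a higher fold at 48 h, which is a difference between lists and not a measured gain. The strongest kept peaks of the 48 h list lay in Arid2, a PBAF subunit gene (58.7-fold), Igf2bp1, an RNA-binding protein gene (55.9-fold), and Rev1, a DNA repair polymerase gene (50.1-fold), and all of them overlapped H3K4me3 at both times. Ltbp3, which encodes a latent TGFβ binding protein, had the highest 48 h fold among the TGFβ and SMAD list genes, at 39.9-fold, where its 0 h peak was 3.37-fold.

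In the TGFβ pathway, H3K4me1 was within 2 kb of a start at both times for 8 of 9 ligands, and at neither time for Tgfb3. Of 8 serine/threonine kinase receptors none had it at both times and 5 had it at 48 h only, whereas all 5 co-receptors and latent binding proteins had it at both times. Of 7 SMAD genes, none had it at both times, 4 had it at 48 h only (Smad1, Smad3, Smad4 and Smad6) and 1 at 0 h only (Smad7). Of 11 genes of SMAD inhibitors, corepressors and Id proteins, 3 had it at both times, 1 at 48 h only, 1 at 0 h only and 6 at neither. Among all 21887 protein-coding genes, 6.46% had H3K4me1 near a start at 48 h only, 7.47% at 0 h only and 22.2% at both times. The division by role was made after the values were seen, and no test was made.

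At the receptors, Tgfbr1, the type I TGFβ receptor, gained a 5.46-fold promoter peak (chr4:47353308-47353972), Acvr1 one of 4.47-fold, Acvr1b one of 4.11-fold, Acvr2a one of 3.22-fold and Bmpr2 one of 2.93-fold. All 5 had H3K4me3 and H3K27ac at both times and H3K18ac at 48 h at the gained peak, and 4 of them, all but Tgfbr1, had BRG1 at 0 h. These counts are near the shares of all 1599 gained promoter peaks given above (92.3% for H3K27ac at 48 h, 86.5% for H3K18ac and 73.7% for BRG1). The peaks ranked low in the 48 h list, from the 1.21st percentile of fold for Bmpr2 to the 27.4th for Tgfbr1. Tgfbr2, the type II TGFβ receptor, had only a distal peak, lost at 48 h (3.17-fold). Smad3, Smad1 and Smad6, an inhibitory SMAD, gained promoter peaks of 4.62-fold, 3.70-fold and 4.69-fold, and Id1, a BMP target, one of 5.66-fold. Smad7, the other inhibitory SMAD, lost both of its peaks, of 5.54-fold and 2.57-fold at 0 h, and Skil, a SMAD corepressor, its only one, of 2.32-fold. The 5.54-fold Smad7 peak ranked at the 99.1st percentile of the 0 h list and the Skil peak at the 1.25th.

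**Figure D5:**
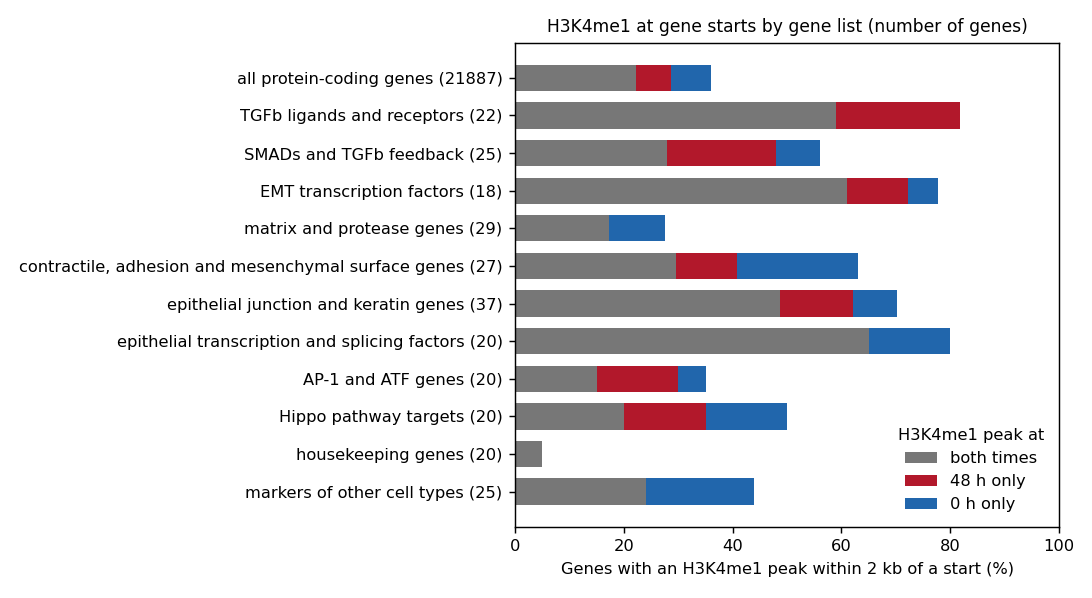
Share of genes (%) with an H3K4me1 peak within 2 kb of a start at both times (grey), 48 h only (red) or 0 h only (blue), for all protein-coding genes and 11 gene lists, with the number of genes in parentheses. TGFβ ligands and receptors have 48 h only starts and no 0 h only start, matrix and protease genes, epithelial transcription and splicing factors and markers of other cell types have 0 h only starts and no 48 h only start, and the housekeeping bar is 1 of 20 genes.

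Counted over the gene and 10 kb to either side, 8280 of all genes (37.8%) had an H3K4me1 peak at both times, not always overlapping ones. Of all genes, 1207 (5.51%) had H3K4me1 at 48 h only and 2657 (12.1%) at 0 h only. With lists cut to equal length this order was turned, with 2511 genes at 48 h only and 1594 at 0 h only. The lists held few genes of either kind: 3 of 22 TGFβ ligands and receptors, 3 of 25 SMAD and feedback genes, none of 18 EMT transcription factors and none of 29 matrix and protease genes had it at 48 h only, and 1, 4, 1 and 4 of them had it at 0 h only. Of all genes, 2869 (13.1%) had at least 1 gained peak and 6871 (31.4%) at least 1 lost peak. Most lists exceeded both shares, with gained peaks at 6 of 22, 6 of 25 and 6 of 18 genes of the first 3 lists and lost peaks at 11, 12 and 12. These lists also had H3K4me1 at more of their genes. Among genes with a 48 h peak, 6 of 19, 6 of 16 and 6 of 15 had a gained one, against 2869 of 9487 of all genes. Among genes with a 0 h peak, 11 of 17, 12 of 17 and 12 of 16 had a lost one, against 6871 of 10937. Matrix and protease genes exceeded neither, with gained peaks at 1 of 29 and lost peaks at 7 of 29. Housekeeping genes exceeded neither, with gained peaks at 2 of 20 and lost peaks at 5 of 20. Markers of other cell types had gained peaks at 3 of 25, below the share of all genes, and lost peaks at 15 of 25, above it. Frequent lost peaks were thus not particular to the TGFβ and EMT lists.

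EMT transcription factors had H3K4me1 at both times in 15 of 18 genes (83.3%, against 37.8% of all genes), among them Snai1, Zeb1, Zeb2, Twist1 and Twist2. At Hmga2 and Tead4, also of the 15, no peak of 0 h overlapped one of 48 h. The Zeb2 promoter peak was 3.07-fold at 0 h and 16.0-fold at 48 h. Snai2 and Tcf4 had no peak at either time, and Klf8 had one at 0 h only (4.01-fold). Among mesenchymal genes, Tpm4, a tropomyosin, and Itgb3, the integrin β3 subunit, gained their only peak at the promoter (4.08-fold and 3.598-fold). Col1a1, a collagen I chain (3.65-fold), Myl9, a myosin light chain (3.92-fold), Cdh2, a cadherin (3.49-fold), and Tpm1, another tropomyosin (3.03-fold), lost theirs. At the lost Col1a1 peak H3K27ac was present at both times. Of 27 contractile, adhesion and mesenchymal surface genes, 2 had H3K4me1 at 48 h only and 4 at 0 h only. Within 2 kb of a start these counts were 3 and 6. Fn1, the fibronectin gene, had a distal peak at both times. Vim and Acta2 had no H3K4me1 peak within 10 kb at either time, although H3K27ac was present at Vim at both times. A missing peak therefore says nothing of the activity of such genes here.

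Epithelial junction and keratin genes had H3K4me1 at both times in 27 of 37 genes (73.0%, against 37.8% of all genes). They had it at 0 h only in 4 genes and at 48 h only in 1, which was Dsp. At their starts 18 had it at both times, 5 at 48 h only and 3 at 0 h only. Tjp3 lost the most peaks of this list, 8 of 12, and Pkp3, the gene of plakophilin 3, lost 6 of 8. At the lost Tjp3 start peak shown above (3.33-fold) H3K4me3 stayed at both times and H3K27ac was present at 0 h only. At the gained Tjp1 start (3.86-fold) H3K4me3, H3K27ac and H3K18ac were present at both times. Of 20 epithelial transcription and splicing factors 14 (70.0%) had H3K4me1 at both times, among them Grhl2, Ovol1, Ovol2, Esrp1 and Esrp2. Grhl3 lost all 3 of its peaks (3.73-fold, 3.499-fold and 2.54-fold), with no H3K27ac at any of them, and Elf3 its only one (3.65-fold).

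Among Hippo pathway targets, which respond to the coactivators YAP and TAZ, Crim1 and Lpp had H3K4me1 at 48 h only, with 2 gained peaks each, and Ccn1, Ccn2 and Nuak2 at 0 h only. The lost Ccn2 peak was weak (2.46-fold, 3.03rd percentile) and had H3K27ac at both times. Of 20 AP-1 and ATF genes, 11 had it at both times (55.0%, against 37.8% of all genes), 4 at 0 h only (Fos, Atf5, Atf7 and Bach1) and none at 48 h only. Fosl2 kept a distal peak (3.89-fold and 10.2-fold), lost another and gained a promoter peak (3.62-fold). Fosb kept 1 of 4 peaks. Atf3 kept its distal peak (4.55-fold at 0 h and 20.7-fold at 48 h). Of the SWI/SNF genes of the study, Pbrm1 had 1 peak within 10 kb at both times (3.47-fold and 12.3-fold), outside the gene and not within 2 kb of its start, Smarca4, the gene of BRG1, lost both of its distal peaks (4.18-fold and 3.84-fold), and Phf10 had none.

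Of 20 housekeeping genes, 1 had H3K4me1 within 2 kb of a start at 0 h and 1 at 48 h, although 19 had H3K4me3 there at both times. Markers of other cell types had H3K4me1 near a start in 11 of 25 genes at 0 h and 6 of 25 at 48 h, with H3K27ac there in 7 and 2. Among defining epithelial genes, the Epcam promoter had a peak at both times (3.35-fold and 11.2-fold) with H3K27ac at both times.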

How the data were processed

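Peak lists of H3K4me1 in control NMuMG cells at 0 and 48 h were compared with each other and with the other control lists; the 9 knockout lists were not used. The deposited peaks are on mm10, per the submitters' processing notes, which also name the peak caller MACS3 (3.0.0a7), the aligner Bowtie2 (2.3.3), deepTools (3.5.1), the Partek software (11.0.24.0325) and fastp (0.19.5), in no order and without settings. Each list names 1 library, so peaks were not pooled. Per the labels' protocols, marks, FOSL2 and FOSB were fixed with formaldehyde, and PHF10, BRG1 and ATF3 also with disuccinimidyl glutarate. The deposited pileup signal was not used. The deposited −log10 p and q values ranked peaks within a list. The authors' fold enrichment, a ratio over input, described, ranked or filtered peaks within a list. Depth is unknown.

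Peaks on assembled chromosomes were kept. Positions are 1-based, taking the deposited start as 0-based because the deposited length is end minus start. Genes and windows came from RefSeq tables of GRCm38.p6: 21887 protein-coding genes, of which 17492 (79.9%) had a stranded start and the others used either gene end. All 260 list genes were found. No peak was assigned to an exon, intron or UTR, and distal sequence was not used here. The members and lists were chosen with earlier results of these data known. Named genes were list genes with a peak at 1 time only, the strongest peaks of each class, list genes with the most gained or lost peaks, and 6 genes of proteins studied; a part is given, and some are not reported here. Overlaps used Python 3.11.15, pandas 2.3.3, NumPy 2.4.6 and SciPy 1.17.1 and were checked against a brute-force count on simulated intervals. Alternatives were stricter peaks, equal list lengths, other overlap, merging, promoter and gene distances, and, chosen after seeing the data, peaks without H3K4me3.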

Additional observations from a re-analysis of the deposited data

How the results depend on the processing

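No paired analysis was possible because each time has 1 H3K4me1 library with no replicate number. All sequences in place of assembled chromosomes gave the same 20179 and 12863 H3K4me1 peaks and the same 9 results, so that setting tested nothing. An overlap of 50% of the shorter peak moved none of the 7 results it applies to beyond its interval. With a fold of at least 5 the log2 ratio of peak numbers turned to 3.96, kept peaks were 47.6%, gained 97.0%, promoter share of lost peaks 7.72%, H3K27ac 49.1% of gained and 17.8% of lost, H3K4me3 97.1% of kept, and genes at 1 time only 7459 in place of 3864 (7336 of them at 48 h only). With −log10 q of at least 5 the values were -0.46, 53.0%, 27.6%, a promoter share of gained peaks of 58.6%, H3K27ac at 58.8% of gained and H3K4me3 at 99.6% of kept peaks. With lists of equal length the log2 ratio was 0.00 by construction, 59.6% were kept, 40.7% gained, promoter share of gained peaks 55.8%, H3K27ac 31.2% of lost, H3K4me3 99.6% of kept, and genes 4105, with 2511 at 48 h only and 1594 at 0 h only. With peaks merged within 1 kb the log2 ratio was -0.60, 50.3% were kept and the promoter share of lost peaks was 21.7%. With promoters within 1 kb the promoter share was 49.3% of gained and 17.6% of lost peaks, and within 5 kb 54.9% and 36.04%. Restricted to peaks without H3K4me3 at either time, chosen after seeing the data, the log2 ratio was -1.79, 2.01% were kept, 93.1% gained, promoters 3.11% of gained and 15.3% of lost, H3K27ac 15.1% of gained and 22.5% of lost, and genes 2270. There the order of gained and lost peaks in promoter share and H3K27ac is turned. Apart from the fold threshold and the equal length, the causes of these shifts were not tested. Depth being unknown, an absent peak is not an absent mark.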

Other observations

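The genes with the most lost H3K4me1 peaks were outside the lists, and those given here were chosen after their values were seen. Gse1 had 57 peaks within its span and 10 kb at 0 h and 20 at 48 h, and 37 were lost. Macrod1, an ADP-ribosylhydrolase gene, lost 29 of 32. Itpr3, an inositol trisphosphate receptor gene, went from 19 peaks to 2. The most gained peaks at any gene were 4, at Esrrg, Lcor, Pard3, Pou4f1 and Prkg1. Pard3 encodes a polarity protein of tight junctions and kept neither of its 2 peaks of 0 h. Atl2 and Elf2 had no peak at 0 h and 3 at 48 h.

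The H3K4me3 peaks that carried H3K4me1 shifted towards stronger ones between the times. In the weakest quintile of H3K4me3 peaks the share with H3K4me1 of the same time was 36.8% at 0 h and 8.29% at 48 h, and in the strongest quintile it was 27.3% and 43.7%. For H3K27ac peaks, the weakest quintile had 60.6% and 28.5% and the strongest quintile 23.3% and 52.5%. The cause was not tested.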
